A study of Rattus norvegicus with 18 samples.

Results

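Cytochrome P450 genes were followed in rat kidneys whose left ureter had been ligated for 1, 3, 7 or 14 days, in polyA-enriched RNA-seq libraries of renal parenchyma. Members were all gene rows with a symbol made of Cyp, a family number, a subfamily letter and a gene number. The rule matched 70 rows with 66 symbols among the 30957 genes of the table, and the row with most counts was kept for the 4 symbols that had 2 rows. The rule used names only and no measured value. Cyp51, which the rule leaves out, was not counted as a member.

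Cytochrome P450 enzymes are haem monooxygenases that insert an oxygen atom into fatty acids, sterols, vitamins and drugs, and take their electrons from P450 reductase in the endoplasmic reticulum or from adrenodoxin in mitochondria. In the kidney they are concentrated in the proximal tubule. There, CYP4A and CYP4F enzymes hydroxylate arachidonic acid at its tail, CYP2C and CYP2J enzymes turn it into epoxides, and a mitochondrial pair makes (CYP27B1) and destroys (CYP24A1) calcitriol, the active form of vitamin D.

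The labels gave 5 libraries for each of 1, 3 and 7 days of ligation and 3 libraries for 14 days, all from the ureteral obstruction model. Neither strain, age nor sex is given in the sources used here, the sham-operated group was not analysed here, and the labels do not say whether each library came from a separate animal, so that the spread behind each p-value, that between libraries, may be technical. In bulk tissue, fewer cells of a type and less RNA per cell cannot be told apart. Levels are the authors' FPKM (fragments scaled to gene length and library size), which allow genes to be compared per length, and tests used the deposited counts.

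Libraries held 5488540 to 12049915 counts, so that 3 counts, the limit that a count of 0 allows, stood for 0.249 to 0.547 CPM (counts scaled to library size), counting error only. Markers of proximal tubule (12 of 12 found) were present in every library, with summed levels of 496 to 1286 FPKM at 1 day, 999 to 3701 at 3 days and 805 to 2940 at 7 days. The 3 libraries labelled 14 days stood apart. Their proximal tubule markers summed to 315, 5520.5 and 214 FPKM in replicates 1, 2 and 3, and their collecting duct markers to 1327, 250 and 1247, against 115 to 226 at 7 days. Havcr1, a protein of injured proximal tubule, was at 381 ± 91.6 FPKM at 7 days (SD, n = 5) and 3.10 ± 3.82 in these 3 (SD, n = 3). Mitochondrial genes took 14.4 to 27.4% of their counts, against 7.11 to 13.6% in the other 15. Replicate 1 also held urothelial markers (summed 279 FPKM) and replicate 3 adipocyte markers (1908 FPKM). The first 3 durations were therefore compared with each other in a fit of their own 15 libraries, and the libraries labelled 14 days are described after them, with and without replicate 2.

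Of the 66 members, 8 had no count in any library, among them the liver genes Cyp2c7, Cyp2c12 and Cyp3a2, and a further 17 had 1 to 15 counts over all 18 libraries, among them Cyp7a1, the rate-limiting enzyme of bile acid synthesis, and Cyp19a1, aromatase. Each library had counts for 37 to 45 members. Mean levels over the 18 libraries were at least 20 FPKM in 9 members (Cyp4a2, Cyp2c23, Cyp4a8, Cyp24a1, Cyp2e1, Cyp4f1, Cyp4a1, Cyp2d2 and Cyp20a1, in falling order), 1 to 20 FPKM in 21, and below 1 FPKM in 36. The lowest of the 9, Cyp20a1, stood at 22.4 FPKM and the next member, Cyp4v3, at 15.5.

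**Figure D1:**
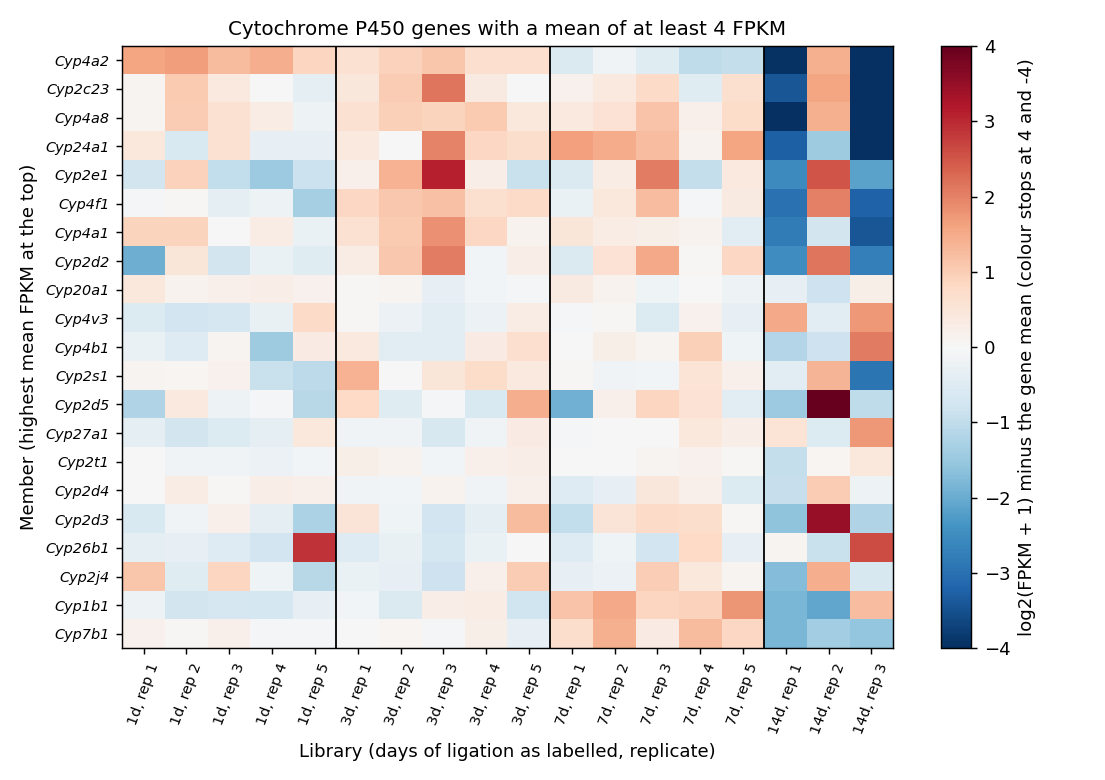
Heat map of the 21 members with a mean of at least 4 FPKM (rows, highest mean at the top) in the 18 libraries (columns, grouped by days of ligation as labelled). Colour gives log2(FPKM + 1) minus the mean of the gene over all libraries; Cyp4a2 goes from red at 1 day to blue at 7 days, Cyp1b1 and Cyp7b1 are red in all 5 libraries of 7 days, and replicate 2 of the libraries labelled 14 days differs from replicates 1 and 3.

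The summed level of all 66 members was 2543 to 4535 FPKM at 1 day (median 3607), 2600.2 to 4583 at 3 days (median 2822) and 1272 to 2205 at 7 days (median 1762). The 5 libraries of 7 days lay below all 10 of 1 and 3 days. Without Cyp4a2 the 3 ranges overlapped. Cyp4a2 made up 72.1 to 79.0% of the sum at 1 day, 48.7 to 63.4% at 3 days and 30.2 to 45.3% at 7 days, while the other members together summed to 647 to 1238, 951 to 2353 and 757 to 1470 FPKM. These sums, shares and ranks leave out a further row with the symbol Cyp4a2, which had means of 405, 303 and 192 FPKM at 1, 3 and 7 days. In the libraries labelled 14 days the sums were 219, 4710.4 and 286 FPKM. Cyp4a2, Cyp2c23 and Cyp4a8 were the 3 highest members in each of the first 15 libraries except replicate 1 of 7 days, where Cyp24a1 took the place of Cyp2c23.

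**Figure D2:**
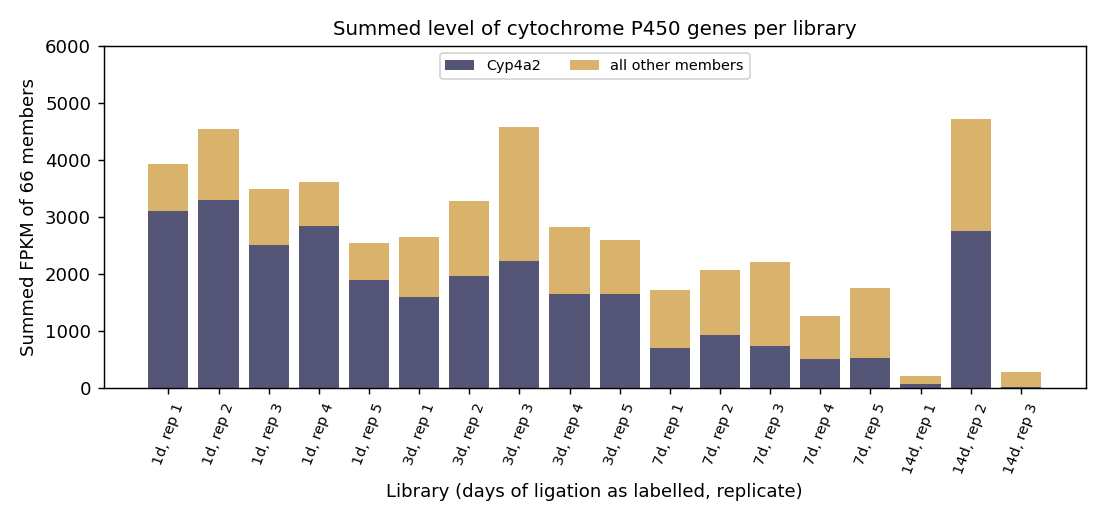
Summed FPKM of the 66 members in each library (bars from 0), divided into Cyp4a2 and all other members. Median sums are 3607, 2822 and 1762 FPKM at 1, 3 and 7 days, the Cyp4a2 portion is smallest at 7 days among these 3, and the libraries labelled 14 days hold 219, 4710.4 and 286 FPKM.

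In the tests across 13991 genes (edgeR quasi-likelihood, with calls at p under 0.05 after Benjamini-Hochberg adjustment), 34 members had enough counts to be tested and 32 did not, 24 of these with some counts. From 1 to 3 days, 3 members were called higher (8.82%, against 5.27% of all genes) and 1 lower (2.94%, against 5.18%). From 3 to 7 days, 2 were called higher (5.88%, against 4.75%) and 3 lower (8.82%, against 3.17%). From 1 to 7 days, 5 were called higher (14.7%, against 18.0%) and 5 lower (14.7%, against 20.2%). With 34 members tested, 1 gene is 2.94% of them, and each of these shares lay within 2 genes of the background. The median log2 fold change of the tested members was 0.32, -0.14 and 0.12 in the 3 comparisons, against -0.02, -0.01 and -0.01 for all genes. The 12 members called in at least 1 of the 3 were Cyp1b1, Cyp20a1, Cyp21a1, Cyp24a1, Cyp27b1, Cyp2f4, Cyp2r1, Cyp3a9, Cyp46a1, Cyp4a2, Cyp4f1 and Cyp7b1. The comparisons share libraries and are not independent of each other.

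These counts, and the shares of all genes called, moved with the libraries in the fit. With all 18 libraries fitted together (common dispersion 0.105, against 0.0542 in the fit of 15), 0 of 35 tested members were called from 1 to 3 days. Of all genes, 1.16% were then called higher and 1.12% lower. From 3 to 7 days 1 member was called higher (2.86%, against 0.717% of all genes) and 0 lower (against 0.331%). The count lower from 1 to 7 days was then 2 (5.71%, against 13.3%). The 3 higher at 3 days became 1 without any of replicates 3 and 4 of 1 day and replicates 4 and 5 of 3 days. That is 2.94% of members, against 3.09 to 4.91% of all genes in those fits. The 1 lower at 3 days became 3 (8.82%) without replicate 5 of 1 day or replicate 2 of 3 days (against 7.14% and 4.06% of all genes). It became 0 without any other library (against 2.73 to 5.52%). The 3 lower from 3 to 7 days became 1 (2.94%) without replicate 2 of 3 days or replicate 5 of 7 days (against 0.707% and 0.717%). The 5 lower from 1 to 7 days became 3 (8.82%) without replicate 1 of 1 day, replicate 4 of 7 days or replicate 5 of 7 days. All genes gave 16.8%, 17.4% and 16.5% in these last fits.

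**Figure D3:**
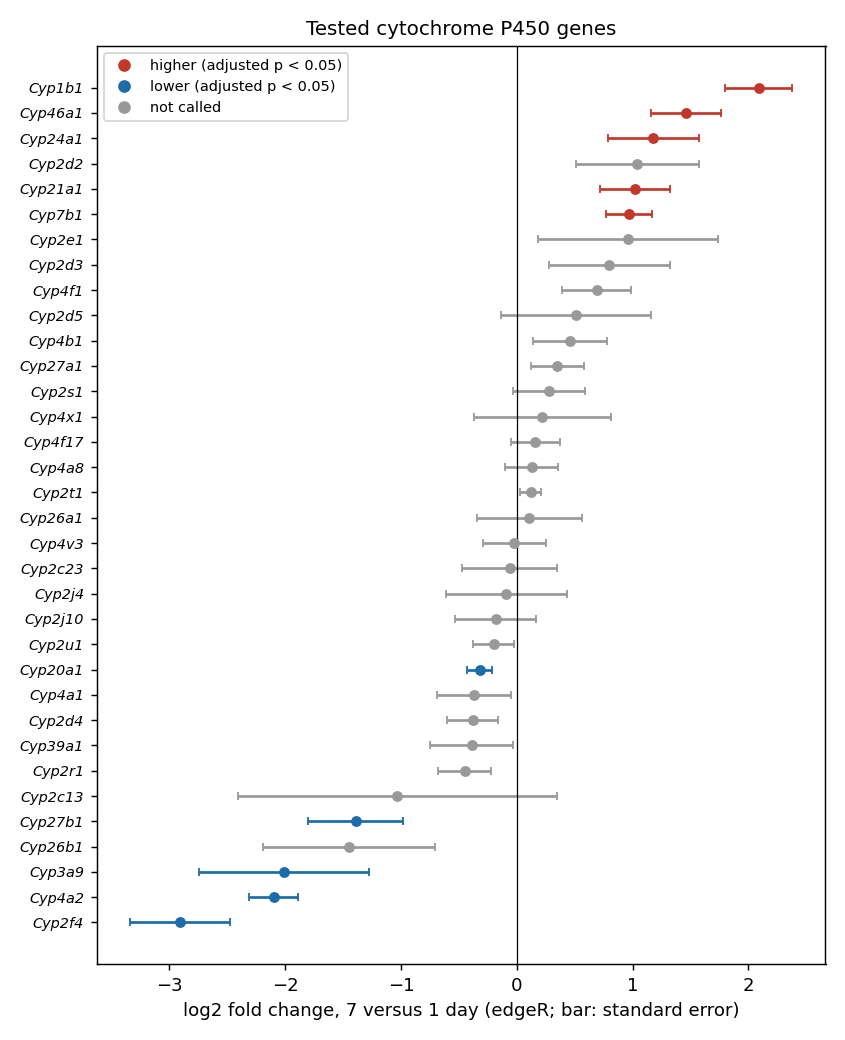
Log2 fold change of the 34 tested members from 1 to 7 days (points, edgeR) with standard errors (bars), ordered by size, in red where called higher, blue where called lower and grey where not called. Cyp1b1 (2.09) and Cyp2f4 (-2.91) stand at the ends of the called members.

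Cyp4a2, of the CYP4A subfamily of fatty acid omega-hydroxylases, had the highest mean level of all members. Cyp4a2 (ENSRNOG00000030154) stood at 3110.3, 3298, 2514, 2851 and 1896 FPKM in the 5 libraries of 1 day, at 1597, 1974, 2230.4, 1656 and 1649 at 3 days and at 700.5, 941, 735, 516 and 532 at 7 days. All libraries of 7 days lay below all of 1 and 3 days, whereas 1 and 3 days overlapped through replicate 5 of 1 day. The group means were 2734 ± 553, 1821 ± 273 and 685 ± 174 FPKM (SD, n = 5 each). Cyp4a2 was 4.28-fold lower at 7 than at 1 day (log2 fold change -2.10 ± 0.21 (SE), edgeR adjusted p = 1.85e-05) and fell by 1.49 ± 0.20 from 3 to 7 days (edgeR adjusted p = 0.00156). From 1 to 3 days the log2 fold change was -0.61 ± 0.20 and did not pass the test (edgeR adjusted p = 0.0627), but it passed without replicate 5 of 1 day (-0.72, edgeR adjusted p = 0.0213) and with DESeq2 (-0.60, DESeq2 adjusted p = 0.0257). In the fit of all 18 libraries neither fall passed, at -2.09 (edgeR adjusted p = 0.0721) and -1.49 (edgeR adjusted p = 0.336).

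Its neighbours on chromosome 5 were not called between the first 3 durations. Cyp4a8 (ENSRNOG00000008842), another CYP4A fatty acid hydroxylase, stood at 230.0, 425, 322, 259 and 184 FPKM at 1 day, 324, 411, 390.0, 438 and 284 at 3 days and 277, 314, 466, 244 and 353 at 7 days. Those ranges overlapped, and the log2 fold change from 1 to 7 days was 0.13 ± 0.23 (edgeR adjusted p = 0.698). Cyp4a1 (ENSRNOG00000009597), the founding peroxisome-proliferator-responsive member, stood at 43.8, 43.7, 23.1, 29.2 and 19.3, then 36.1, 49.8, 84.7, 42.3 and 25.7, then 32.8, 28.7, 27.7, 25.9 and 17.1 FPKM at 1, 3 and 7 days, with -0.37 ± 0.32 from 1 to 7 days (edgeR adjusted p = 0.382). From 3 to 7 days it gave -0.94 ± 0.32 (edgeR adjusted p = 0.0783), which passed without replicate 5 of 3 days (-1.10, edgeR adjusted p = 0.0474) and with DESeq2 (DESeq2 adjusted p = 0.0322). The ratio of Cyp4a2 to Cyp4a8 within a library was 7.76 to 13.5 at 1 day, 3.78 to 5.80 at 3 days and 1.51 to 3.00 at 7 days. The 3 ranges did not overlap. Its mean log2 was 3.30, 2.31 and 1.05, and differed between each pair of durations (exact two-sided permutation test, p = 0.0079, the smallest it can give for 5 against 5, adjusted p = 0.0119 over the 9 ratio tests made). Cyp4a2 to Cyp4a1 was 71.0 to 109 at 1 day, 26.3 to 64.2 at 3 days and 19.9 to 32.8 at 7 days, and its mean log2 differed between 1 and 7 days by -1.79 (exact permutation p = 0.0079, adjusted p = 0.0119). These ratios were chosen after the levels had been seen. They restate the levels of the same genes in the same libraries and are not separate support for the fall of Cyp4a2.

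**Figure D4:**
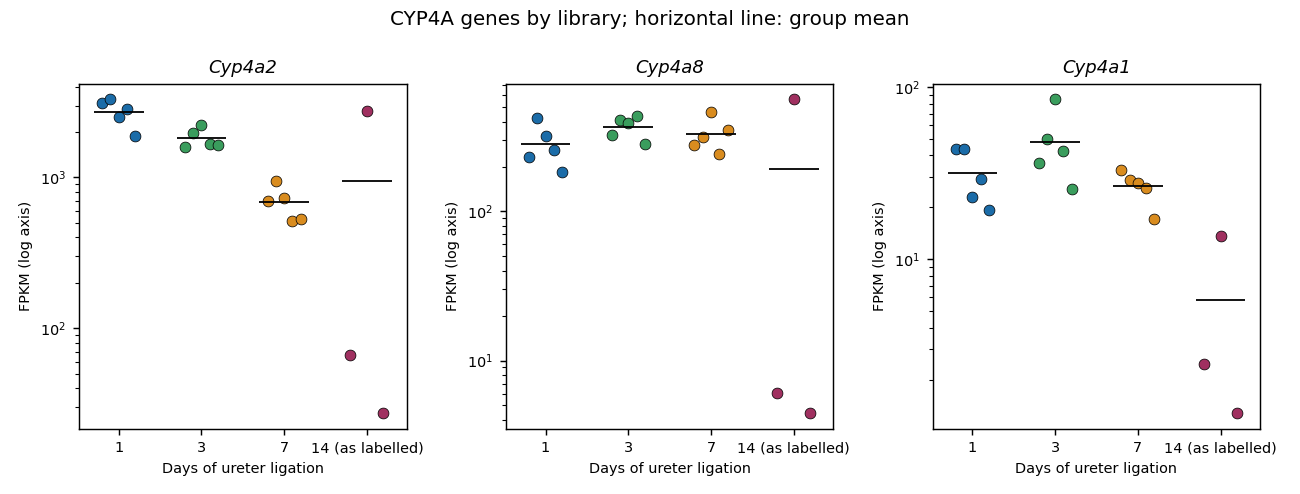
FPKM of Cyp4a2, Cyp4a8 and Cyp4a1 (log axes) in each library by days of ligation; points are libraries and horizontal lines group means. Cyp4a2 steps down to 516 to 941 FPKM at 7 days while Cyp4a8 stays between 184 and 466 FPKM over the first 15 libraries.

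The deposited table places Cyp4a2 at chromosome 5, 134196912 to 134207863, minus strand, between Cyp4a8 (chromosome 5, 133978954 to 134008255, minus strand) and Cyp4a1 (chromosome 5, 134492756 to 134507154, plus strand), with no build named. The 250 bases before the RefSeq start (assembly GRCr8, where 52 of the 66 members had a promoter entry) are shown for Cyp4a2, which fell, and Cyp4a8, which was not called, since both lie in the same cluster. Cyp4a2 is chr5:134170909-134171158 and Cyp4a8 chr5:133970227-133970476, both on the minus strand and printed 5′ to 3′. Capitals mark AGGTCA on either strand, the core letters bound by many nuclear receptors.
Cyp4a2: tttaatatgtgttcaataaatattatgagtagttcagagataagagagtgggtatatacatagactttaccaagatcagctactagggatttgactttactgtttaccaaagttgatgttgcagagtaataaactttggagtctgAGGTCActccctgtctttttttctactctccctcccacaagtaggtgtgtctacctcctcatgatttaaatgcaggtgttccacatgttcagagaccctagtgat
Cyp4a8: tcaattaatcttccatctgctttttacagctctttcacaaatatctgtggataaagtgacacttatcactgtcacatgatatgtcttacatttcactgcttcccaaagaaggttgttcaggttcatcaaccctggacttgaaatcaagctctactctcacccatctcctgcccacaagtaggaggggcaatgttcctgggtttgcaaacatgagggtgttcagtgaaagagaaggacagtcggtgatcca
AGGTCA occurred 1 time in the Cyp4a2 window, starting 105 bases before the start, and 0 times in the Cyp4a8 window. The motif was found in 14.1% of all 33469 promoters of this length and in 17 of the 52 members (32.7%). A match is a run of letters and does not show binding.

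A further row carries the symbol Cyp4a2 (ENSRNOG00000009741) with 79364 counts against 754537 in the row used. It ranged from 51.0 to 721 FPKM at 1 day, 66.5 to 668 at 3 days and 37.4 to 470 at 7 days, and was not called from 1 to 7 days (log2 fold change -1.16 ± 0.91, edgeR adjusted p = 0.329). CYP4A genes are close paralogues and the sources used here do not say how shared reads were assigned, which leaves the levels of the single genes uncertain. Proximal tubule markers, given beside Cyp4a2, had median sums of 958, 1681 and 1427 FPKM at 1, 3 and 7 days. From 3 to 7 days their median log2 fold change was -0.50 (-0.75 to 0.01) and 0 of 12 were called. From 1 to 7 days it was 0.55, with 2 of 12 called higher (Slc34a1 and Aqp1) and 0 lower. Of all genes, 18.0% were called higher and 20.2% lower from 1 to 7 days. The part of these markers in the result was not tested.

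Cyp4f1 (ENSRNOG00000004786), an omega-hydroxylase of arachidonic acid and leukotrienes, had its highest mean among the first 3 durations at 3 days. Its levels were 26.1, 27.7, 20.4, 23.0 and 9.99 FPKM at 1 day, 48.9, 57.7, 61.4, 42.2 and 46.2 at 3 days and 22.2, 36.3, 64.0, 25.9 and 35.1 at 7 days. Every library of 3 days lay above every library of 1 day, and 7 days overlapped both. The change from 3 to 7 days was not called (log2 fold change -0.55 ± 0.30, edgeR adjusted p = 0.251). The rise from 1 to 3 days was 1.24 ± 0.30 (log2, edgeR adjusted p = 0.0203). It was lost without replicate 3 of 3 days (edgeR adjusted p = 0.0535) and in the fit of all 18 libraries (edgeR adjusted p = 0.422). Proximal tubule markers had a higher median sum at 3 days too, with a median log2 fold change of 0.82. Of these, 1 of 12 was called higher (Aqp1), against 5.27% of all genes. The part of these markers in the result was not tested. Other CYP4 members, Cyp4b1, Cyp4v3, Cyp4f17 and Cyp4x1, passed no test among the first 3 durations. Cyp4v3, a fatty acid hydroxylase, had means of 11.7 ± 6.71, 12.6 ± 2.85 and 12.3 ± 2.58 FPKM (SD, n = 5 each).

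Arachidonic acid epoxygenases were not called between any of the first 3 durations. Cyp2c23 (ENSRNOG00000013291), the main epoxygenase of rat kidney, stood at 265, 508, 323, 248 and 186 FPKM at 1 day, 332, 497, 1083, 313 and 244 at 3 days and 272, 323, 417, 172 and 379.7 at 7 days. Replicate 3 of 3 days was the highest of the 15. The log2 fold change from 1 to 7 days was -0.06 ± 0.41 (edgeR adjusted p = 0.915). Cyp2j4, a CYP2J epoxygenase, had means of 5.30 ± 3.82, 4.57 ± 2.96 and 5.33 ± 2.53 FPKM (SD, n = 5 each) and a log2 fold change of -0.09 ± 0.52 from 1 to 7 days (edgeR adjusted p = 0.911). Of the genes that handle these products, Ephx1, microsomal epoxide hydrolase, fell from 84.5 ± 28.4 to 44.2 ± 8.42 FPKM from 1 to 7 days (log2 fold change -1.03 ± 0.25, edgeR adjusted p = 0.00541), and none of the other 5 tested genes of that list was called from 1 to 7 days. Ephx2, the soluble hydrolase that acts on arachidonic acid epoxides, gave 0.02 ± 0.51 (edgeR adjusted p = 0.981).

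Genes of vitamin D metabolism moved in opposite directions. Cyp24a1 (ENSRNOG00000013062; chromosome 3, 168097485 to 168111920, minus strand), which starts the breakdown of calcitriol, stood at 117, 56.7, 133, 68.5 and 68.6 FPKM at 1 day, 114, 86.4, 346, 155 and 141 at 3 days and 273, 243, 205, 96.3 and 257 at 7 days. At 7 days, 4 of the 5 libraries lay above all of 1 day, and replicate 4 did not. It rose by 1.18 ± 0.39 from 1 to 7 days (log2, edgeR adjusted p = 0.0258), from a mean of 88.7 ± 33.9 to 215 ± 71.0 FPKM. The call was lost without replicate 2 or 4 of 1 day or replicate 1 or 5 of 7 days (edgeR adjusted p up to 0.0601), and with all 18 libraries (edgeR adjusted p = 0.16).

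Cyp27b1 (ENSRNOG00000046214; chromosome 7, 70335061 to 70340005, plus strand), which makes calcitriol, was far lower. It stood at 1.11, 1.65, 1.06, 1.09 and 1.17 FPKM at 1 day, 0.691, 1.69, 0.323, 0.704 and 0.471 at 3 days and 0.298, 0.291, 0.483, 0.448 and 0.960 at 7 days, with all libraries of 7 days below all of 1 day. It fell by 1.39 ± 0.41 from 1 to 7 days (log2, edgeR adjusted p = 0.015). These levels rest on few counts per library, 18 to 36 at 1 day, 7 to 35 at 3 days and 6 to 17 at 7 days, so ratios to Cyp27b1 are imprecise. The ratio of Cyp24a1 to Cyp27b1 was 34.4 to 125 at 1 day, 51.1 to 1070.2 at 3 days and 215 to 917 at 7 days. Its mean log2 was 2.69 higher at 7 than at 1 day (exact two-sided permutation test, p = 0.0079, the smallest it can give, adjusted p = 0.0119). The difference between 3 and 1 day did not pass the exact permutation test (p = 0.0556, adjusted p = 0.0626). This ratio too was chosen after the levels had been seen. It restates the opposite calls of the 2 genes in the same libraries and is not separate support for them.

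Enzymes of the first activation step of vitamin D were measured too. Cyp2r1, a vitamin D hydroxylase, had means of 2.14 ± 0.325, 2.75 ± 0.750 and 1.65 ± 0.329 FPKM (SD, n = 5 each) and fell by 0.80 ± 0.23 from 3 to 7 days (log2, edgeR adjusted p = 0.043), a call that was lost on leaving out 8 of the 10 libraries in turn (edgeR adjusted p up to 0.109). Cyp27a1, a mitochondrial sterol hydroxylase that also acts on vitamin D, had 6.55 ± 2.72, 7.44 ± 2.01 and 8.92 ± 1.55 FPKM and was not called (log2 fold change 0.35 ± 0.23 from 1 to 7 days, edgeR adjusted p = 0.24), but was called higher without replicate 5 of 1 day (0.62, edgeR adjusted p = 0.014). Of 8 genes of vitamin D uptake and control, 1 was called higher from 1 to 3 days, Vdr, the calcitriol receptor (0.73 ± 0.17, edgeR adjusted p = 0.0163). None was called from 3 to 7 days, and Dab2 and Fgfr1 were lower from 1 to 7 days. Of all genes, 5.27% were called higher from 1 to 3 days and 20.2% lower from 1 to 7 days. Lrp2, the megalin receptor that takes up vitamin D with its carrier, gave 0.01 ± 0.34 (edgeR adjusted p = 0.982).

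Among the members known from the metabolism of foreign compounds and of steroids, Cyp1b1 (ENSRNOG00000040287) rose. It stood at 3.08, 1.82, 2.00, 1.92 and 2.82 FPKM at 1 day, 3.42, 2.16, 4.75, 4.85 and 1.72 at 3 days and 9.54, 12.7, 7.54, 8.01 and 15.2 at 7 days. Every library of 7 days lay above the 10 of 1 and 3 days. The rise was 2.09 ± 0.29 from 1 to 7 days (log2, edgeR adjusted p = 0.000145) and 1.58 ± 0.29 from 3 to 7 days (edgeR adjusted p = 0.00769), the last of which did not pass with all 18 libraries (edgeR adjusted p = 0.207). CYP1B1 oxidises oestrogens and polycyclic hydrocarbons and is known from mesenchymal cells and as a target of the aryl hydrocarbon receptor. Another target of that receptor, Cyp1a1, was not tested among the first 3 durations. It had 0 counts in all libraries of 1 day and 50 at 3 days. Scaled to library size and set against a floor of 3 counts over the 1 day group, this is 16.6-fold higher. That figure includes neither the counting error at 3 days nor the spread between libraries. Of the 50 counts, 42 came from replicate 1 (1.32 FPKM), which also held the most urothelial marker signal at 3 days (70.2 FPKM, others 0.610 to 11.8); its part was not tested. Without that library, a choice made after seeing the data, 8 counts remained, 3.77-fold higher at the same floor and with the same limits. The receptor itself, Ahr, gave 0.12 ± 0.12 (edgeR adjusted p = 0.466), and its partner Arnt fell by 0.41 ± 0.11 (edgeR adjusted p = 0.0116), both from 1 to 7 days.

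The promoter of Cyp1b1 is shown as that of a member that rose while its known receptor was not called (RefSeq GRCr8, chr6:21094315-21094564, plus strand, 250 bases before the start). Capitals mark GCGTG on either strand, the core letters of the site of the aryl hydrocarbon receptor and Arnt.
Cyp1b1: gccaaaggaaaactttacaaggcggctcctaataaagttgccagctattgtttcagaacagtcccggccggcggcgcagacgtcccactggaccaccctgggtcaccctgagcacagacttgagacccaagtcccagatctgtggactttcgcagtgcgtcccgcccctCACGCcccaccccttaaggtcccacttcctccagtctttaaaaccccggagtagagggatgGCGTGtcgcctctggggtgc
GCGTG occurred 2 times, starting 81 and 20 bases before the start. It was found in 25.9% of all promoters of this length and in 16 of the 52 members (30.8%).

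Cyp7b1 (ENSRNOG00000009730), an oxysterol hydroxylase, also rose late. It stood at 4.01, 3.54, 4.06, 3.23 and 3.26 FPKM at 1 day, 3.37, 3.66, 3.21, 4.23 and 2.55 at 3 days and 6.27, 10.9, 4.52, 9.65 and 6.93 at 7 days. The 5 libraries of 7 days lay above the 10 earlier ones. Log2 fold changes were 1.09 ± 0.20 from 3 to 7 days (edgeR adjusted p = 0.00781) and 0.97 ± 0.20 from 1 to 7 days (edgeR adjusted p = 0.00174). Fibroblast and macrophage markers moved with Cyp1b1 and Cyp7b1. All 5 fibroblast markers were called higher from 1 to 7 days, with summed levels of 102 to 191 FPKM at 1 day and 368 to 605 at 7 days. So were 4 of 5 macrophage markers, with 31.6 to 55.6 and 59.8 to 182 FPKM. The share of all genes called higher was 18.0%. The part of these markers in these results was not tested.

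Cyp2f4 (ENSRNOG00000032805), whose relatives oxidise naphthalene in lung, fell. It stood at 3.25, 3.14, 2.25, 3.44 and 1.54 FPKM at 1 day, 0.958, 2.43, 0.509, 1.18 and 1.55 at 3 days and 0.313, 0.382, 0.176, 0.784 and 0.267 at 7 days. All libraries of 7 days lay below all of 1 day. The log2 fold change was -2.91 ± 0.43 from 1 to 7 days (edgeR adjusted p = 0.000208) and -1.84 ± 0.45 from 3 to 7 days (edgeR adjusted p = 0.0256). The later step was lost without replicate 2 of 3 days (edgeR adjusted p = 0.0694), without replicate 5 of 7 days (0.0686) and with all 18 libraries (0.062). From 1 to 3 days it was not called (-1.06 ± 0.37, edgeR adjusted p = 0.0778).

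**Figure D5:**
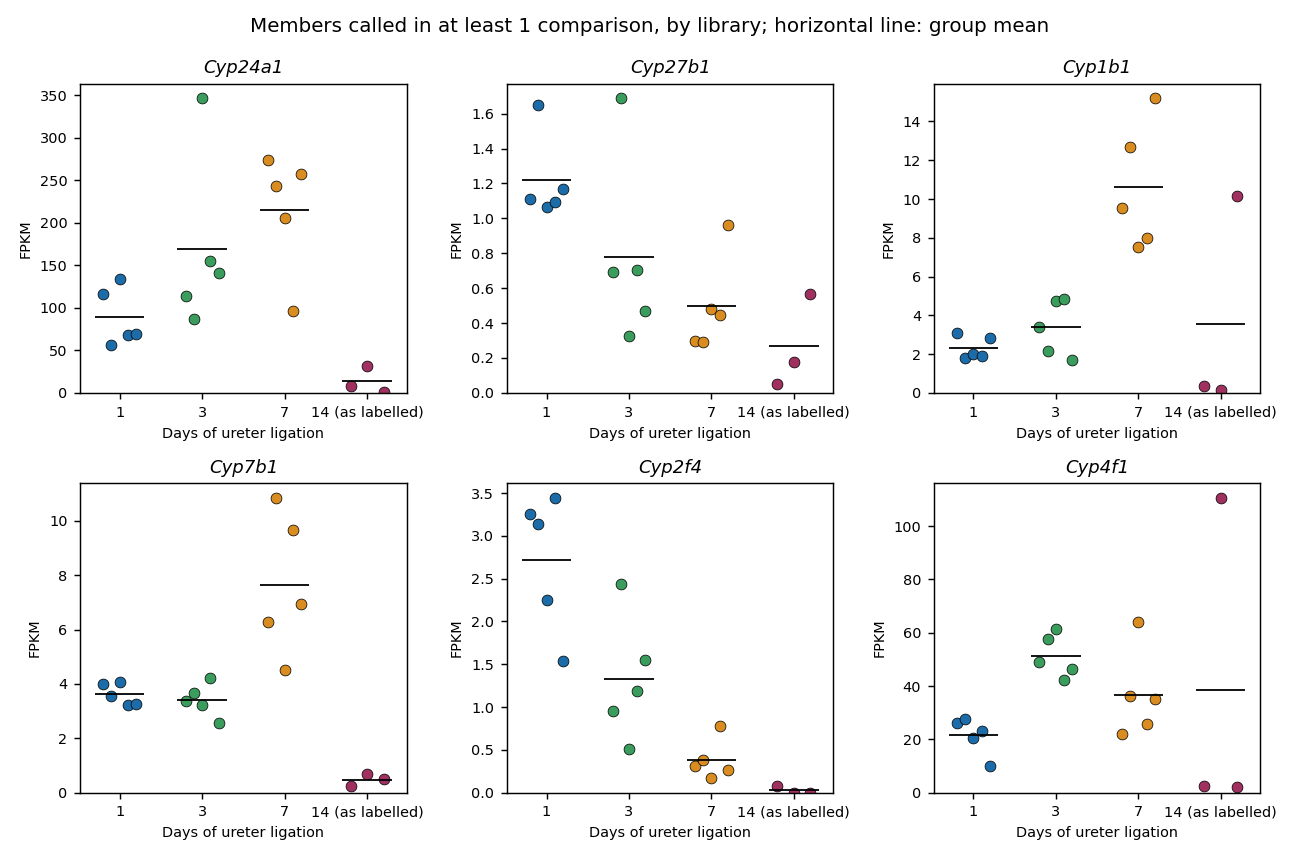
FPKM (linear axes from 0) of 6 members called in at least 1 comparison, by days of ligation; points are libraries and horizontal lines group means. Cyp1b1 and Cyp7b1 lie higher in all 5 libraries of 7 days than in the 10 earlier ones. Cyp27b1 and Cyp2f4 lie lower at 7 than at 1 day, and Cyp4f1 lies higher at 3 days (42.2 to 61.4 FPKM) than at 1 day.

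Other drug-metabolising members were low or varied widely between libraries. Cyp2e1 (ENSRNOG00000012458), the ethanol-inducible enzyme, stood at 13.8, 45.8, 11.4, 8.03 and 12.7 FPKM at 1 day, 27.3, 64.3, 212, 29.0 and 12.3 at 3 days and 15.6, 29.4, 100.1, 11.7 and 31.1 at 7 days. A single library was far above the others in each group, and no comparison passed (log2 fold change 1.93 ± 0.80 from 1 to 3 days, edgeR adjusted p = 0.129). Replicate 3 was also the highest in proximal tubule markers at 3 days (3701 FPKM) and at 7 days (2940.1 FPKM). Cyp2d2, of the subfamily that metabolises debrisoquine, had 13.7 ± 8.00, 36.4 ± 25.4 and 29.5 ± 16.4 FPKM (SD, n = 5 each) and was not called. Cyp3a9, a CYP3A monooxygenase, had 4.08 ± 3.28, 4.18 ± 4.45 and 1.11 ± 0.415 FPKM and fell by 2.01 ± 0.73 from 1 to 7 days (log2, edgeR adjusted p = 0.0412). That call was lost on leaving out 7 of the 10 libraries in turn (edgeR adjusted p up to 0.143). Hepatocyte marker sums, like Cyp3a9 and Cyp2f4, were lower at 7 than at 1 day. The 12 summed to 46.6 to 127 FPKM at 1 day, 34.4 to 103 at 3 days and 17.8 to 31.6 at 7 days. The tested markers split: of 5, 3 were called lower (Apob, Fgb and Apoc3) and 1 higher (Cps1) from 1 to 7 days. The shares of all genes were 20.2% and 18.0%. Alb, Apoa2 and Ahsg were at 0 in all libraries of 3 days, and the part of these markers in the results was not tested. Cyp20a1, an orphan P450, moved little in size: it had 26.1 ± 2.22, 20.9 ± 2.46 and 22.4 ± 3.77 FPKM and fell by 0.35 ± 0.11 to 3 days (edgeR adjusted p = 0.0488) and by 0.32 ± 0.11 to 7 days (edgeR adjusted p = 0.0277). Leaving out single libraries ended these calls in 8 and 4 of 10 cases.

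The other 22 tested members were called in none of the 3 comparisons. From 1 to 7 days their log2 fold changes ran from -1.45 (Cyp26b1) to 1.04 (Cyp2d2), and from 3 to 7 days from -2.65 (Cyp2c13) to 0.86 (Cyp4x1). Nearest to the threshold from 1 to 3 days were Cyp2t1, an orphan CYP2 gene (0.28 ± 0.09, edgeR adjusted p = 0.0501), and Cyp2s1, an epithelial CYP2 enzyme (0.94 ± 0.30, edgeR adjusted p = 0.0603). Cyp2t1 was steady between libraries, with 6.80 ± 0.500, 8.42 ± 0.878 and 7.90 ± 0.497 FPKM (SD, n = 5 each). Cyp2s1 had 7.93 ± 3.29, 15.6 ± 6.45 and 10.4 ± 2.28 FPKM, and Cyp2d4, the CYP2D enzyme known from brain, 6.91 ± 0.716, 6.03 ± 0.839 and 5.62 ± 2.12. The 4 CYP2D genes Cyp2d2, Cyp2d3, Cyp2d4 and Cyp2d5 lie side by side on chromosome 7 and are close paralogues, so that their single levels are uncertain as well. Among the 24 members with counts that were not tested, Cyp2c11 had the most, 207 counts in 7 of the 18 libraries.

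Members of sterol and steroid metabolism were low. Cyp46a1, a cholesterol hydroxylase best known from neurons, stood at 0.491, 0.128, 0.342, 0.273 and 0.548 FPKM at 1 day, 0.746, 0.705, 0.519, 1.27 and 0.819 at 3 days and 1.12, 0.818, 1.13, 1.40 and 1.02 at 7 days. It rose by 1.09 ± 0.30 from 1 to 3 days (log2, edgeR adjusted p = 0.0348) and by 1.46 ± 0.30 from 1 to 7 days (edgeR adjusted p = 0.00174), with all libraries of 7 days above those of 1 day. The rise to 3 days was lost without any of 4 libraries: replicates 3 and 4 of 1 day and replicates 4 and 5 of 3 days (edgeR adjusted p up to 0.0882). Cyp21a1, an adrenal steroid hydroxylase, had 0.441 ± 0.116, 0.909 ± 0.221 and 0.951 ± 0.383 FPKM (SD, n = 5 each). It rose by 1.01 ± 0.30 to 3 days (edgeR adjusted p = 0.0428) and 1.02 ± 0.30 to 7 days (edgeR adjusted p = 0.0147). The first call was lost on leaving out 8 of 10 libraries in turn, and the later one without replicate 3 of 7 days (edgeR adjusted p = 0.0501). Both genes were under 1 FPKM at 3 days and Cyp21a1 also at 7 days, and were named there after their values were seen.

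Adrenal markers, a list that includes Cyp21a1, Cyp11a1 and Cyp17a1 themselves, were low: the 7 found of 8 summed to 0.889 to 4.14 FPKM in the first 15 libraries, and Nr5a1, the steroidogenic factor, was at 0 in all 5 libraries of 1 day. Cyp11a1, which cuts the cholesterol side chain, stood at 2.46, 1.46, 0.0919, 0.0917 and 2.11 FPKM at 1 day and at no more than 0.513 in any library of 3 or 7 days, and was not tested there. Cyp17a1, a steroid hydroxylase, reached at most 0.556 FPKM. Of the 5 tested steroidogenic partner genes, Scarb1 was called lower from 1 to 3 days (against 5.18% of all genes). From 1 to 7 days Hsd17b1 was called higher and Hsd11b1 and Scarb1 lower (against 18.0% and 20.2%).

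The retinoic acid hydroxylases, which clear retinoic acid, were not called. Cyp26a1 had 0.777 ± 0.282, 1.14 ± 0.568 and 0.884 ± 0.561 FPKM (SD, n = 5 each). Cyp26b1 stood at 2.41, 2.44, 2.03, 1.56 and 31.2 FPKM at 1 day, 2.04, 2.55, 1.65, 2.60 and 3.39 at 3 days and 2.03, 2.82, 1.57, 6.53 and 2.46 at 7 days. Replicate 5 of 1 day stood far above the other 14 libraries, and it also held the most collecting duct (841 FPKM), urothelial (86.5) and adipocyte (117) marker signal of these 15. Without it the log2 fold change of Cyp26b1 from 1 to 7 days went from -1.45 ± 0.74 to 0.42 (edgeR adjusted p = 0.346). Of 11 genes of retinoid handling, 4 were called higher from 1 to 7 days (Aldh1a1, Aldh1a2, Stra6 and Dhrs3) and 1 lower (Crabp2). Of all genes, 18.0% were called higher and 20.2% lower. Aldh1a2, which makes retinoic acid, rose by 1.61 ± 0.23 (edgeR adjusted p = 0.000164).

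Partners that P450 enzymes need were measured too. Of 11 tested electron donors and haem-binding partners, 0 were called higher and 1 lower (Cyb5r4) from 1 to 3 days, 0 either way from 3 to 7 days, and 1 each way from 1 to 7 days (Cyb5r2 higher, Cyb5r4 lower), each within 2 genes of the share of all genes. Por, the reductase that serves all microsomal P450 enzymes, gave -0.08 ± 0.07 from 1 to 7 days (edgeR adjusted p = 0.434). Of 12 genes of haem synthesis and breakdown, Alad, Urod and Blvra were called higher and Fech and Hmox1 lower from 1 to 7 days. The shares of all genes were 18.0% higher and 20.2% lower. Fech, which puts iron into haem, fell by 0.64 ± 0.11 (edgeR adjusted p = 0.000457).

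Of 14 tested transcription factors of P450 genes, 2 were called higher from 1 to 3 days: Hnf4a (1.13 ± 0.34, edgeR adjusted p = 0.047) and Vdr. From 3 to 7 days 3 were called lower: Ppara, Rxra and Rora. From 1 to 7 days Cebpa and Cebpb were called higher and Arnt, Ppara, Rxra and Rora lower. Of all genes, 5.27% were called higher from 1 to 3 days and 3.17% lower from 3 to 7 days. From 1 to 7 days, 18.0% were called higher and 20.2% lower. Ppara, the fatty acid receptor known to drive CYP4A genes, had 2.78 ± 0.148, 2.63 ± 1.25 and 1.30 ± 0.294 FPKM (SD, n = 5 each) and fell by 1.17 ± 0.29 from 1 to 7 days (edgeR adjusted p = 0.00607). Its partner Rxra fell by 0.96 ± 0.20 (edgeR adjusted p = 0.0022). These moved in the direction of Cyp4a2, whereas Cyp4a8 was not called, and their part in the result was not tested.

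In the libraries labelled 14 days, replicate 2 lay above all 7 day libraries and replicates 1 and 3 below them for 6 of the 9 members with at least 20 FPKM (Cyp4a2, Cyp2c23, Cyp4a8, Cyp2e1, Cyp4f1 and Cyp2d2). Cyp4a2 stood at 66.2, 2759 and 27.4 FPKM in replicates 1, 2 and 3, Cyp4a8 at 6.02, 565 and 4.45, Cyp2c23 at 22.0, 723 and 7.74 and Cyp4f1 at 2.54, 111 and 1.95. Replicate 2 was the highest of all 18 libraries in 10 of the 37 members with at least 100 counts, and replicate 3 in 6. Cyp2d5, a CYP2D monooxygenase, stood at 0.889, 101 and 1.56 FPKM, its neighbour Cyp2d3 at 0.432, 48.0 and 0.888, and Cyp2c11, a male-typical liver enzyme of the rat, at 0, 18.4 and 0.365. In replicate 3 the 3 highest members were instead Cyp4b1, Cyp4v3 and Cyp27a1. A mean over these 3 libraries describes none of them.

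Set against 7 days in a fit of all 18 libraries and 14511 genes, 5 of 35 tested members were called higher (14.3%, against 21.4% of all genes) and 4 lower (11.4%, against 16.9%). Without replicate 2 the counts were 7 higher and 12 lower of 36 (19.4% and 33.3%, against 26.2% and 24.0% of all genes). With replicate 2 alone they were 15 and 4 of 38 (39.5% and 10.5%, against 16.4% and 16.1%), and without replicate 1 they were 9 and 4 of 36 (25% and 11.1%, against 16.6% and 14.3%). The side of the background on which these shares lay turned with the library left out, and no direction is read from them for the members as a group. Cyp4a2 was not called with all 3 (1.08 ± 0.89, edgeR adjusted p = 0.363), was lower without replicate 2 (-3.66, edgeR adjusted p = 7.11e-06) and higher with replicate 2 alone (2.62, edgeR adjusted p = 3.45e-05). Cyp4a8 likewise gave -5.79 (edgeR adjusted p = 3.19e-07) and 1.37 (edgeR adjusted p = 0.012). Cyp2d5 was called higher (3.45 ± 1.13, edgeR adjusted p = 0.0242) and took the opposite sign without replicate 2 (-1.76, edgeR adjusted p = 0.145), and its call was also lost without replicate 5 of 7 days (edgeR adjusted p = 0.0537) and with the 2 groups alone (edgeR adjusted p = 0.119). With replicate 2 alone, that library is assumed to vary like the other groups.

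Members below every 7 day library in all 3 of these libraries included Cyp7b1, Cyp24a1, Cyp4x1 and Cyp2f4. Cyp7b1 stood at 0.236, 0.695 and 0.513 FPKM and was called lower (-3.64 ± 0.36, edgeR adjusted p = 6.17e-06), also without replicate 2 and with it alone. Cyp24a1 stood at 8.12, 31.5 and 1.55 FPKM and was called lower in each of these fits (-3.45 ± 0.82 with all 3, edgeR adjusted p = 0.00387). Cyp4x1, a CYP4 member found mainly in brain, had 0 counts in all 3 libraries against 109 at 7 days (edgeR adjusted p = 0.00364). At the floor of 3 counts over the group this is 19.1-fold lower, without counting error at 7 days or spread between libraries. With replicate 2 alone the log2 fold change was -7.48. Cyp2f4 had 1 count against 25, a ratio of 13.1 (2.35 to 518, exact 95% interval, counting error only), and was called lower (edgeR adjusted p = 0.018), but not with replicate 2 alone (0.121) or without replicate 3 (0.082).

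Cyp39a1, another oxysterol hydroxylase, stood at 1.52, 2.17 and 1.36 FPKM and was called higher (1.59 ± 0.42, edgeR adjusted p = 0.00693), as was Cyp21a1 at 0.968, 2.33 and 2.63 FPKM (1.37 ± 0.36, edgeR adjusted p = 0.00769), each also without replicate 2 and with it alone. With the 2 groups alone Cyp21a1 was not called (edgeR adjusted p = 0.0616). Adrenal markers, Cyp21a1 among them, summed to 2.37, 2.52 and 11.8 FPKM in replicates 1, 2 and 3, against 2.17 to 3.37 at 7 days, and their part was not tested. Cyp4v3 at 40.5, 9.44 and 46.6 FPKM and Cyp27a1 at 12.2, 5.23 and 29.4 were called higher with all 3 (1.61 ± 0.37, edgeR adjusted p = 0.00299, and 1.02 ± 0.35, edgeR adjusted p = 0.0283) but not with replicate 2 alone. Cyp27a1 was also not called without replicate 3 (edgeR adjusted p = 0.434), without replicates 1, 2 or 3 of 7 days in turn (edgeR adjusted p = 0.0571, 0.054 and 0.0516) or with the 2 groups alone (0.0819). Cyp1b1 stood at 0.330, 0.134 and 10.1 FPKM and was not called with all 3 (-1.44, edgeR adjusted p = 0.161), but was called lower without replicate 3 (-5.10, edgeR adjusted p = 3.44e-05), with replicate 2 alone (-5.68, edgeR adjusted p = 0.000257) and under limma on log2(FPKM + 1) (-2.14, limma adjusted p = 0.00456). Collecting duct marker sums and the mitochondrial share were higher in all 3 libraries than in the 7 day group. These members did not all follow them library by library. Cyp4v3, for one, lay within its 7 day range (8.95 to 15.4 FPKM) in replicate 2, which had the highest mitochondrial share (27.4%). The parts of tissue make-up, RNA quality and duration cannot be told apart here.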

How the data were processed

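The data are 18 rat kidney libraries with read counts and FPKM per gene in 1 table. Per the submitters' processing notes, reads passed fastp 0.19.7 and HISAT2 2.0.4; counter, strand setting, annotation and build: not given in the sources used here. Counts per gene were deposited by the authors as whole numbers, and FPKM were deposited beside them, normalised for gene length and depth by the authors. Symbols with 2 rows were reduced to the row with most counts.

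Counts were tested with edgeR 4.0.16 (R 4.3.3): TMM factors, filterByExpr (minimum count 10, minimum total 15), quasi-likelihood F tests, Benjamini-Hochberg adjustment over all tested genes, called under 0.05. The first 3 durations were fitted in 15 libraries and 14 against 7 days in all 18 (common dispersions 0.0542 and 0.105). Fold changes are log2 of count ratios. Sequence windows came from RefSeq GRCr8. Ratios of 2 genes were tested by exact permutation with scipy 1.17.1. The tests were tried on simulated data.

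Named genes were the called members with a mean of at least 1 FPKM in the higher group, up to 6 per direction, plus a fixed set of 17 kidney-relevant members, of which Cyp4a3 was not analysed here. The members, lists and designs were chosen with earlier results of these data known. Pathway (7) and marker (12) lists are described by counts, and 2 genes of the pathway lists are not reported here. Alternatives were size factors, DESeq2 1.42.0, low-count filters, limma 3.58.1 on log2(FPKM + 1) and log2(FPKM + 0.1), the 2 groups alone, all 18 libraries, a replicate block, leaving out mitochondrial counts or each library, and, chosen after seeing the data, replicate 2 as the only library labelled 14 days. Replicates differed from each other beyond duplicates (Pearson r of log2 counts 0.763 to 0.981 within groups, across genes). Library totals, 5488540 to 12049915 counts, set the precision. The sample titles name only duration and replicate, and effects of processing batch were not tested. Sham libraries were not analysed here, nor were metabolite data used here.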

Additional observations from a re-analysis of the deposited data

Results flagged for a closer look

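In 12 of 75 groups of 5 libraries (25 members, 3 durations), 1 library lay apart from the other 4 by more than Dixon's 95% limit. For normally distributed values, chance crosses that limit in about 1 group in 20. The values here were untransformed FPKM of genes that share libraries, so this rate need not hold. In all 12 groups the library apart was the highest. Of these, 3 fell in replicate 5 of 1 day, the library with the most collecting duct, urothelial and adipocyte marker signal of the first 15: Cyp26b1 at 31.2 FPKM (others 1.56 to 2.44), Cyp27a1 at 11.3 FPKM (others 4.43 to 6.00) and Cyp4v3 at 23.5 FPKM (others 7.44 to 10.7). Cyp2e1 had such a library in each duration, with 45.8 FPKM in replicate 2 of 1 day (others 8.03 to 13.8), 212 FPKM in replicate 3 of 3 days (others 12.3 to 64.3) and 100.1 FPKM in replicate 3 of 7 days (others 11.7 to 31.1). Cyp27b1 did too, at lower levels. It stood at 1.65 FPKM in replicate 2 of 1 day (others 1.06 to 1.17), 1.69 FPKM in replicate 2 of 3 days (others 0.323 to 0.704) and 0.960 FPKM in replicate 5 of 7 days (others 0.291 to 0.483). Without replicate 2 of 3 days, Cyp27b1 was also lower at 3 than at 1 day (log2 fold change -1.16, edgeR adjusted p = 0.0445, against -0.68 and 0.265 with it). Cyp24a1 reached 346 FPKM in replicate 3 of 3 days (others 86.4 to 155), Cyp26a1 1.26 FPKM in replicate 1 of 1 day (others 0.559 to 0.761) and Cyp26b1 6.53 FPKM in replicate 4 of 7 days (others 1.57 to 2.82).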

How the results depend on the processing

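Called members higher and lower were 3 and 1 (1 to 3 days), 2 and 3 (3 to 7 days), 5 and 5 (1 to 7 days) and 5 and 4 (7 days to the libraries labelled 14 days), and moved by over 1.5 times as follows; where no construction is named, the cause was not tested. DESeq2 gave 6 higher and 2 lower from 1 to 3 days (17.6% and 5.88%, against 8.01% and 7.83% of all genes). From 3 to 7 days it gave 5 lower (14.7%, against 6.41%). Without a filter on low counts, 0 were lower at 3 days (against 2.25% of all genes) and 9 higher at 14 (15.5%, against 13.7%). A stricter filter, which tests fewer genes, gave 0 lower from 1 to 3 days (against 5.38% of all genes). From 3 to 7 days it gave 1 lower (4.35%, against 4.03%). From 1 to 7 days it gave 3 higher and 2 lower (13% and 8.7%, against 18.5% and 20.7%). At 14 days it gave 3 higher and 2 lower (12% and 8%, against 22.2% and 17.2%). Limma on log2(FPKM + 1) gave 3 lower from 1 to 7 days (8.82%, against 13.7% of all genes). At 14 days it gave 3 higher and 7 lower (8.57% and 20%, against 6.57% and 33.7%). With 0.1 added instead it gave 0 lower at 3 days (against 3.22%) and 3 lower from 1 to 7 days (8.82%, against 13.7%). At 14 days that fit gave 2 higher and 9 lower (5.71% and 25.7%, against 6.02% and 34.3%). Fitting all 18 libraries gave 0 higher and 0 lower from 1 to 3 days (against 1.16% and 1.12% of all genes). From 3 to 7 days it gave 1 higher (2.86%, against 0.717%) and 0 lower (against 0.331%). From 1 to 7 days it gave 2 lower (5.71%, against 13.3%). The 14 and 7 day groups alone gave 2 higher (6.67%, against 12% of all genes). Correlations of deviations between libraries with the same replicate number were -0.424 to 0.395, with 10 of 24 pairs over 0.1. Pairs with unlike numbers were not compared, so whether the numbers pair libraries cannot be told. With the numbers as a replicate block, 2 and 2 members were called from 1 to 3 days (5.88% each, against 4.44% and 4% of all genes). From 3 to 7 days the counts were 2 and 3 (5.88% and 8.82%, against 3.5% and 2.42%). They were 5 and 4 from 1 to 7 days (14.7% and 11.8%, against 17.2% and 18.7%). At 14 days they were 4 and 5 (11.4% and 14.3%, against 16% and 14.9%). There Cyp2c23 (-1.18), Cyp2e1 (-0.42) and Cyp4a2 (-0.36) took the opposite sign. The block added the calls of Cyp4a2 from 1 to 3 days (-0.60, adjusted p = 0.043) and Cyp4a1 at 14 days (0.0221), and ended those of Cyp21a1 from 1 to 3 days (0.0609), Cyp3a9 from 1 to 7 days (0.0786) and Cyp2d5 at 14 days (0.308). Leaving out 1 library at a time gave 1 to 4 higher and 0 to 3 lower (1 to 3 days), 2 higher and 1 to 4 lower (3 to 7 days), 4 to 6 higher and 3 to 5 lower (1 to 7 days), 4 to 9 higher and 4 to 12 lower (14 against 7 days). Over the same fits, shares of all genes called higher were 2.77 to 7.18%, 1.58 to 5.53%, 15 to 20.8% and 16.6 to 26.2%. Shares called lower were 2.73 to 7.14%, 0.707 to 4.06%, 16.5 to 20.9% and 14.3 to 24%. Calls over all genes (1463, 1108, 5351 and 5560 in the same order) became 2216 and 1959 with DESeq2 in the first 2 comparisons, 330 and 152 there with all 18 libraries, and 3153 for the 14 and 7 day groups alone, and ranged over 775 to 2016, 324 to 1295, 4435 to 5841 and 4559 to 7459 without 1 library. Signs turned under limma for members not called in the edgeR fit: from 1 to 7 days Cyp2c23 (0.05) and Cyp2j4 (0.15), or with 0.1 added Cyp2c23 (0.05) and Cyp2j4 (0.23), and at 14 days Cyp2c23 (-2.51), Cyp2e1 (-0.97), Cyp2j4 (-0.50), Cyp2r1 (-0.10) and Cyp4a2 (-1.94), or with 0.1 added Cyp2c23 (-2.58), Cyp2e1 (-1.12), Cyp2j4 (-0.84), Cyp2r1 (-0.20) and Cyp4a2 (-1.96). With replicate 2 as the only 14 day library, signs turned for Cyp27a1 (-0.16), Cyp11a1 (-5.17), Cyp26b1 (-0.59) and Cyp4a8 (1.37). Log2 fold changes from 1 to 3 days changed sign on leaving out 1 library in Cyp26b1 (-1.96 to 0.17), Cyp27a1 (0.00 to 0.43) and Cyp2j4 (-0.71 to 0.11). Log2 fold changes from 3 to 7 days changed sign on leaving out 1 library in Cyp26b1 (-0.21 to 0.42), Cyp2e1 (-1.78 to 0.14) and Cyp2j4 (-0.16 to 0.63). Log2 fold changes from 1 to 7 days changed sign on leaving out 1 library in Cyp26a1 (-0.23 to 0.36), Cyp26b1 (-1.92 to 0.42), Cyp2c23 (-0.21 to 0.21), Cyp2j4 (-0.41 to 0.28) and Cyp4a8 (-0.05 to 0.33). Log2 fold changes at 14 against 7 days changed sign on leaving out 1 library in Cyp11a1 (-0.48 to 1.66), Cyp2c23 (-4.18 to 0.83), Cyp2d5 (-1.76 to 4.01), Cyp2e1 (-3.12 to 1.77), Cyp2j4 (-1.72 to 1.06), Cyp2r1 (-0.45 to 0.66), Cyp4a2 (-3.66 to 1.64) and Cyp4a8 (-5.79 to 0.37). Over the named genes and count settings, 1146 values kept direction and side of the threshold, 94 lost a call, 24 gained one and 49 changed sign. At the shallowest library a count of 0 allows 0.547 CPM, so the 25 members with at most 15 counts cannot be compared between durations.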
